A study of Mus musculus with 9 samples.

Results

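The genes described here were 10 members of the tumour necrosis factor (TNF) superfamily: the cytokine genes Tnf, Lta and Ltb, the receptor genes Tnfrsf1a, Tnfrsf1b and Ltbr, and the APRIL and BAFF system with Tnfsf13, Tnfsf13b, Tnfrsf13b and Tnfrsf13c. Members were chosen by name, as the array probes carrying one of these gene names and no control flag. Of the 10 genes, 9 had such a probe, with 13 probes among 55681, and no probe carried the name Tnfsf13. The tissue was abdominal aorta from C57BL/6 mice with the uMT mutation, in which B cells stop early in development for want of membrane IgM. All groups shared this genotype, controls included. In the first group CaCl2 at 0.5 M was applied around the aorta and mouse polyclonal IgG was injected into the peritoneum (CaCl2 plus IgG). The second received the CaCl2 application alone (CaCl2), and in the third saline took its place (sham). Each group held 3 arrays. Aortas of the CaCl2-treated mice were taken on day 7. The sources used here give neither the age and sex of the mice, nor the IgG dose, nor the day on which sham aortas were taken.

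Ligands of the TNF superfamily act as trimers on the cell surface or after release, and their receptors recruit TRAF adaptors that lead to the NF-kB transcription factors. TNF signals through TNFR1, present on most cells, and TNFR2, found mainly on immune and endothelial cells. Lymphotoxin alpha either pairs with lymphotoxin beta to act on the lymphotoxin beta receptor of stromal and myeloid cells, where it organises lymphoid tissue, or acts alone on the TNF receptors. BAFF (Tnfsf13b) and APRIL (Tnfsf13) are made largely by myeloid and stromal cells and are best known for keeping B and plasma cells alive through BAFF-R (Tnfrsf13c), TACI (Tnfrsf13b) and BCMA (Tnfrsf17).

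RNA of every sample was read on its own 1-colour Agilent array. Values below are log2 signals relative to the 75th percentile of the array, so that 0 is the signal of a fairly bright spot, and the values of a gene were compared only between arrays. Differences between groups are log2 differences from a limma fit over 16444 genes, with p-values adjusted by Benjamini-Hochberg over all of them and a threshold of 0.05. The share of probes well above background was 54.9% to 59.9% per array. Replicate 3 of CaCl2 plus IgG stood apart: it correlated with its group by 0.959 on average, against 0.973 to 0.987 for the remaining arrays. Nothing in the labels states that the replicates were separate animals, so the p-values reflect only how much these samples varied, which can be technical. The number of arrays limits the precision of every value. As a check of the tissue, the summed signal of 8 smooth muscle markers was 882 to 1200 times the 75th percentile with CaCl2 plus IgG, 803 to 1290 times with CaCl2, and 2590 to 2980 times in sham aortas.

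The first comparison asked what CaCl2 changed in aortas without B cells. With CaCl2 against sham 8 of 9 members were higher, namely Tnf, Lta, Ltb, Ltbr, Tnfrsf1b, Tnfsf13b, Tnfrsf13b and Tnfrsf13c, and Tnfrsf1a did not pass. Over all genes tested 36.5% were called, 17.4% as higher and 19.1% as lower. That split depends on the scaling: 2862 of 5995 calls were higher here and 3647 of 4724 when arrays were scaled to their median. On all 9 members the arrays of the groups did not overlap, with CaCl2 higher, as for 24.7% of all genes. The 4 genes Tnf, Lta, Ltb and Tnfrsf13c passed the filter on dim probes only because they were bright in CaCl2-treated aortas, so their place among the higher genes was partly set by the filter. Among genes well above background on all 9 arrays, 4 of 5 members were higher, against 16% of all such genes. Of these 4, Tnfrsf13b was counted by its brightest probe, and its probes disagreed in direction, as described below. In bulk tissue, more cells of a type and more RNA per cell cannot be told apart.

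Tnf, which encodes the founding cytokine of the family, was read by a single probe printed 10 times on each array. It stood at -1.78, -2.95 and -3.36 with CaCl2 plus IgG, at -2.40, -2.27 and -1.18 with CaCl2, and at -5.78, -5.43 and -6.18 in sham aortas. Every treated array was above every sham array, and the treated groups overlapped each other. In the treated groups all 30 spots of a group were well above background, against 1 of 30 in the sham group, so the sham level is only a bound. Tnf was at least 5.01-fold higher with CaCl2 than in sham aortas (limma adjusted p = 0.000917). This bound depends on how background is handled. With the normexp background, which compresses dim probes, the log2 difference was 0.79 and still called (limma adjusted p = 0.0280).

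Ltb, the membrane anchor of the lymphotoxin heterotrimer, had the widest range of the members. Its values were 1.46, 2.00 and -0.37 with CaCl2 plus IgG, 1.46, 1.76 and 3.18 with CaCl2, and -2.95, -3.26 and -5.88 in sham aortas, where 2 of 3 arrays were well above background. The lowest treated array was replicate 3 of CaCl2 plus IgG, the array that stood apart, and it still lay above all sham arrays. Ltb rose by 6.16 ± 0.90 on the log2 scale with CaCl2 (SE, limma adjusted p = 0.00189, n = 3 each). Without sham replicate 3 the difference was 5.24 and still called (limma adjusted p = 0.00430).

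Lta, the soluble lymphotoxin, had -3.89, -3.84 and -2.74 with CaCl2 plus IgG, -4.25, -3.74 and -2.30 with CaCl2, and -4.77, -5.79 and -5.06 in sham aortas, where 0 of 30 spots were well above background. Replicate 3 was the highest array in both treated groups, and the others lay close to the highest sham array. Lta was at least 1.80-fold higher with CaCl2 than in sham aortas (limma adjusted p = 0.0331). This call was lost without sham replicate 2 (log2 difference 1.48, limma adjusted p = 0.101), sham replicate 3 (1.85, 0.0728), CaCl2 replicate 2 (1.93, 0.0536) or CaCl2 replicate 3 (1.21, 0.0818), and with the normexp background, which compresses dim probes, the difference was 0.04 (limma adjusted p = 0.921).

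**Figure D1:**
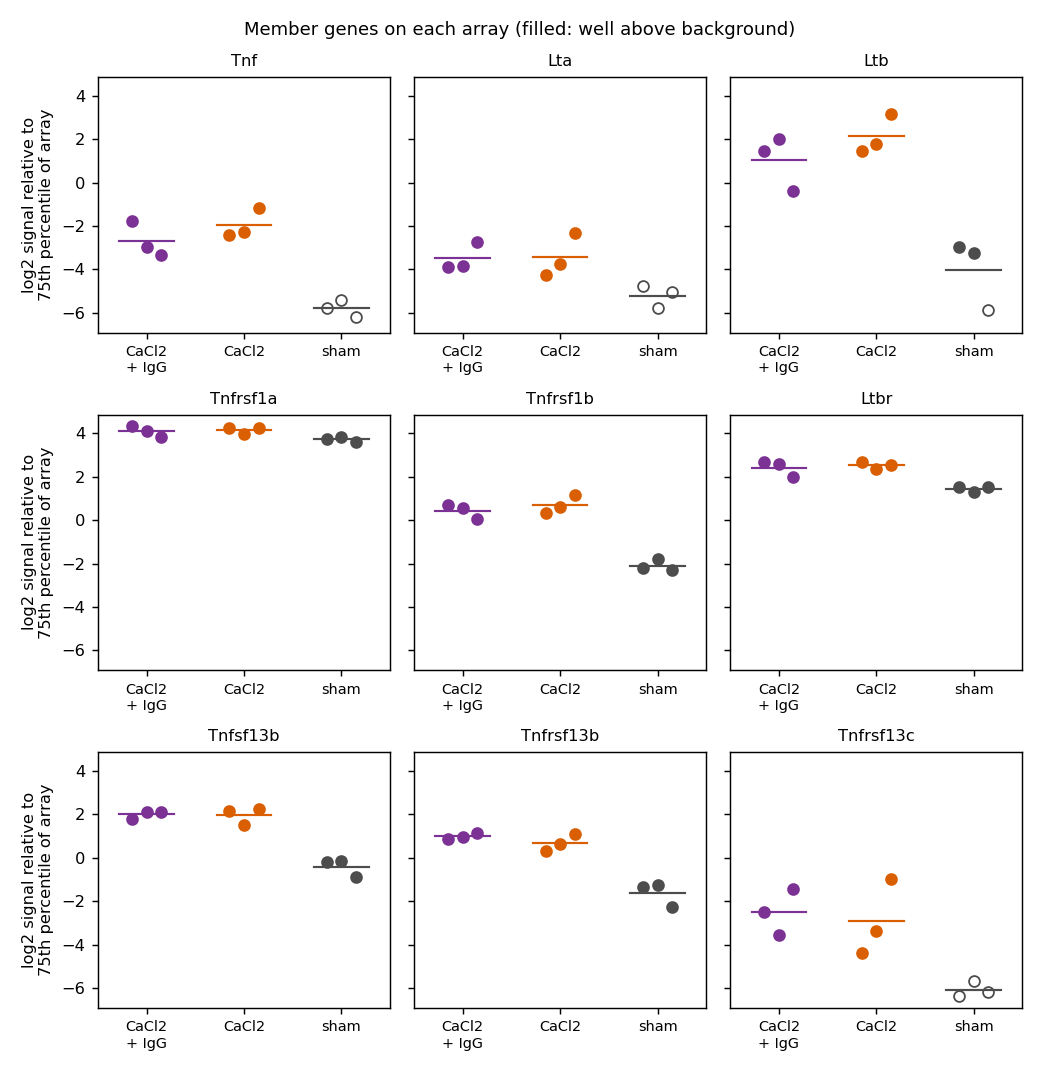
Log2 signal relative to the 75th percentile of the array (y axis) of the 9 measured members, each point 1 array and each bar the mean of 3, for CaCl2 plus IgG, CaCl2 and sham from left to right; open points were not well above background. In every panel the sham points lie below all 6 treated points, from a narrow gap in Tnfrsf1a to a wide one in Ltb.

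The genes Ltb, Tnf and Lta lie side by side within the major histocompatibility complex. Their probes fall within 7.2 kb of chromosome 17, at chr17:35333097-35340334 of build mm9, with Ltb on the plus strand and Tnf and Lta on the minus strand. Because these neighbours were all higher with CaCl2, the 250 bases before each start site in RefSeq, build GRCm38.p6, were searched on both strands for the NF-kB consensus, a motif of 10 letters. All 10 members had such a window, 11 windows in all since Tnfsf13b had 2 start sites. Only Ltb held a match, 1 of 11 windows, against 7.25% of 32817 windows of all genes. The match is a description of letters, not a shown binding site, and says nothing of the factor in this tissue. The window of Ltb (chr17:35194257-35194506, plus strand) is shown with the NF-kB match, on the minus strand at -87 to -78, in capitals, and that of Tnf (chr17:35202008-35202257, minus strand) with its TATAAA at -29 to -24 in capitals. TATAAA was also in the window of Lta, at -167 to -162, and in 12.4% of all windows. The AP-1 motif TGANTCA was found for Tnfsf13 and for 1 start site of Tnfsf13b, and in 6.75% of all windows.
Ltb: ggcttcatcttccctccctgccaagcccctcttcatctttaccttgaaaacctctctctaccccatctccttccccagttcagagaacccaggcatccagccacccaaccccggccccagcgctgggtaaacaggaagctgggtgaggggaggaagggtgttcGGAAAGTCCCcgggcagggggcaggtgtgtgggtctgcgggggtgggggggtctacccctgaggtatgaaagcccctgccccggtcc
Tnf: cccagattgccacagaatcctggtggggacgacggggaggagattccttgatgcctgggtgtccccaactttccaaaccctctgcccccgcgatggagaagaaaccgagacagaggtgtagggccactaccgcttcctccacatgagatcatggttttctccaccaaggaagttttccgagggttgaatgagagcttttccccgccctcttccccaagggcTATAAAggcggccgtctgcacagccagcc

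Of the 3 receptors of these ligands, Tnfrsf1b and Ltbr rose with CaCl2 and Tnfrsf1a did not pass. Tnfrsf1b, which encodes TNFR2, had 0.70, 0.54 and 0.07 with CaCl2 plus IgG, 0.33, 0.59 and 1.15 with CaCl2, and -2.21, -1.79 and -2.29 in sham aortas. The treated arrays spanned about 1 log2 unit and the sham arrays lay well below them. Tnfrsf1b rose by 2.79 ± 0.26 (SE), which is 6.90-fold, with the smallest adjusted p of the members (limma adjusted p = 0.000458). Ltbr, the receptor of the lymphotoxin heterotrimer, had 2.69, 2.59 and 1.97 with CaCl2 plus IgG, 2.70, 2.34 and 2.53 with CaCl2, and 1.51, 1.30 and 1.55 in sham aortas. It rose by 1.07 ± 0.21, or 2.10-fold (limma adjusted p = 0.00613), and its arrays lay close together within each group apart from replicate 3 of CaCl2 plus IgG.

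Tnfrsf1a, which encodes TNFR1 and lies near Ltbr on chromosome 6, was the member that did not pass. Its brighter probe had 4.33, 4.10 and 3.85 with CaCl2 plus IgG, 4.24, 3.97 and 4.24 with CaCl2, and 3.74, 3.83 and 3.62 in sham aortas. The groups did not overlap, but the gap was small. The difference was 0.42 ± 0.16 (limma adjusted p = 0.0662, with a 95% interval of 0.06 to 0.79). A second probe, printed 10 times on each array, had 4.06, 4.08 and 3.39 with CaCl2 plus IgG, 4.21, 3.76 and 3.96 with CaCl2, and 2.99, 3.32 and 3.26 in sham aortas. When all 32166 kept probes were tested one by one, a setting added after the data were seen, that probe passed with 0.78 ± 0.22 (limma adjusted p = 0.0313) and the brighter probe did not (adjusted p = 0.0802). In that test 32.6% of probes were called. Over the alternatives of the gene test, Tnfrsf1a passed in 7 of 22 with CaCl2 against sham.

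Tnfsf13b, the BAFF gene, was bright on all 9 arrays. It had 1.81, 2.12 and 2.09 with CaCl2 plus IgG, 2.15, 1.51 and 2.23 with CaCl2, and -0.18, -0.16 and -0.89 in sham aortas. The treated groups overlapped almost wholly and lay above sham by more than the spread of any group. Tnfsf13b rose by 2.37 ± 0.26, or 5.18-fold (limma adjusted p = 0.000755). For APRIL no probe bore the name Tnfsf13. A pair of probes named BC096441, on chromosome 11, list accessions of Tnfsf13 together with the read-through gene Tnfsfm13, which joins it to its neighbour, so their signal cannot be given to APRIL alone. The brighter of them had 2.49, 2.25 and 2.01 with CaCl2 plus IgG, 2.17, 2.56 and 2.15 with CaCl2, and 1.76, 1.38 and 0.79 in sham aortas. It rose by 0.98 ± 0.26 (limma adjusted p = 0.0198). The dimmer one differed by -0.25 in the test probe by probe (limma adjusted p = 0.371).

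Tnfrsf13b encodes TACI, a receptor of BAFF and APRIL on B cells, plasma cells and some myeloid cells. Its 3 probes span 8.0 kb of the plus strand of chromosome 11, and they disagreed in direction. They are shown because the direction of this gene rests on the choice of probe. The most 5′ probe is at chr11:60954823-60954882, the middle one at chr11:60960405-60960464 and the most 3′ at chr11:60962770-60962829, all on mm9, and of the last the first 30 bases are given.
Tnfrsf13b, 5′ probe: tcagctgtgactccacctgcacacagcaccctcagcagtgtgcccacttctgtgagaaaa
Tnfrsf13b, middle probe: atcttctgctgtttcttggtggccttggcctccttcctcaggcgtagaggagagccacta
Tnfrsf13b, 3′ probe, first 30 bases: cctggagaatatagcctggctccatttgca

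The 3′ probe was the brightest and stood for the gene. It had 0.85, 0.94 and 1.16 with CaCl2 plus IgG, 0.31, 0.62 and 1.11 with CaCl2, and -1.37, -1.25 and -2.29 in sham aortas. By this probe, which the files tie to an Ensembl transcript rather than to the RefSeq one, Tnfrsf13b rose by 2.31 ± 0.30 (limma adjusted p = 0.00130). The middle probe had -1.90, -1.91 and -1.62 with CaCl2 plus IgG, -2.33, -1.97 and -2.21 with CaCl2, and -2.83, -2.61 and -2.96 in sham aortas, a rise of 0.63 (limma adjusted p = 0.0239, probe by probe). The 5′ probe ran the other way, with -4.09, -3.95 and -2.52 with CaCl2 plus IgG, -4.35, -3.75 and -4.37 with CaCl2, and -3.18, -2.75 and -2.14 in sham aortas. All CaCl2 arrays lay below the sham arrays, while replicate 3 of CaCl2 plus IgG lay within the sham range. The signal of this probe fell by 1.46 with CaCl2 (limma adjusted p = 0.0372, probe by probe). All 3 probes were well above background on all 9 arrays. With the mean of the 3 probes in place of the brightest, the difference was 0.49 and not called (limma adjusted p = 0.103).

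**Figure D2:**
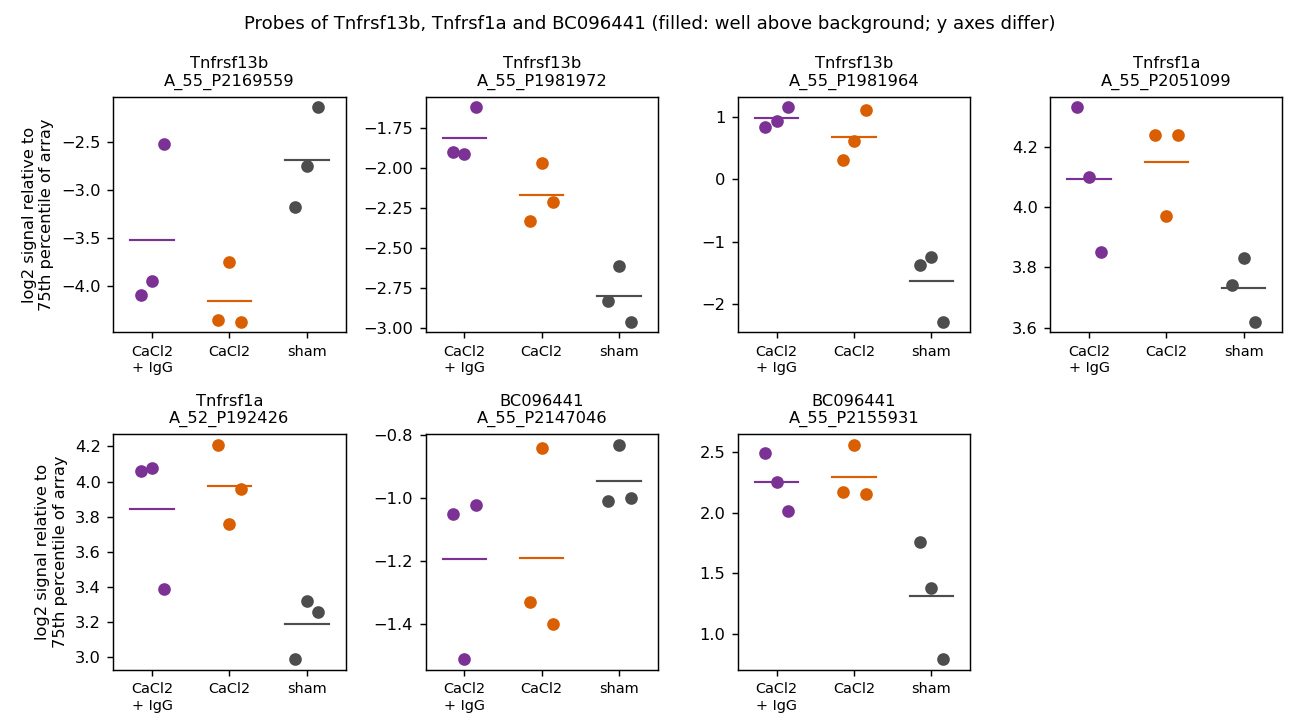
Log2 signal relative to the 75th percentile of the array (y axes, each panel with its own range) for the 3 probes of Tnfrsf13b in 5′ to 3′ order, the 2 of Tnfrsf1a and the 2 named BC096441, each point 1 array and each bar the mean of 3. The sham mean is highest for the first Tnfrsf13b probe and lowest for the other two of that gene.

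Tnfrsf13c encodes BAFF-R, the main BAFF receptor of mature B cells, the cells this genotype lacks. One of its 2 probes was below background on all 9 arrays and was not used. The other had -2.48, -3.56 and -1.45 with CaCl2 plus IgG, -4.40, -3.39 and -0.96 with CaCl2, and -6.38, -5.69 and -6.17 in sham aortas, of which 0 of 3 were well above background. Its spread among CaCl2 arrays was the widest of the members (SD 1.77, n = 3). Tnfrsf13c was at least 2.57-fold higher with CaCl2 than in sham aortas (limma adjusted p = 0.0207). The call was lost without sham replicate 1 (log2 difference 3.01, limma adjusted p = 0.0602) or sham replicate 3 (3.12, 0.0603), and the log2 difference was 2.19 without CaCl2 replicate 3 and 3.91 without CaCl2 replicate 1. With the normexp background it was 0.42 and not called (limma adjusted p = 0.475).

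B cell markers are given beside Tnfrsf13c and Lta. Of 9 tested of 10 listed, 3 were higher with CaCl2, 0 were lower and 6 did not pass, against 17.4% of all genes called higher. Some of the higher ones were not well above background in sham aortas, so the filter on dim probes partly set this count. Their summed signal, in multiples of the 75th percentile, was 6.42, 4.51 and 13.2 with CaCl2 plus IgG, 3.88, 4.57 and 9.73 with CaCl2, and 3.34, 3.34 and 5.02 in sham aortas. The groups overlapped, and replicate 3 was the highest of each, as it was of both treated groups for Tnfrsf13c and Lta. Pax5, the transcription factor that keeps B cell identity, differed by -1.90 (limma adjusted p = 0.0510) and Cd22, an inhibitory B cell lectin, by -1.07 (limma adjusted p = 0.0959), both with all CaCl2 arrays below sham, and Blk was below the filter in every group. The part of these cells in the values of Tnfrsf13c and Lta was not tested.

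The second comparison asked whether injected IgG altered the CaCl2 response. No member passed with CaCl2 plus IgG against CaCl2, 0 of 9, and limma called 0 of 16444 genes, a share of 0%. At an unadjusted p under 0.05, 0 of 9 members and 240 genes, 1.46%, remained. The groups overlapped for every member, whereas 5.02% of all genes had groups that did not. The log2 differences were -0.74 for Tnf (95% interval -1.79 to 0.31), -0.06 for Lta (-1.29 to 1.17) and -1.11 for Ltb (-3.16 to 0.94). Among the receptors they were -0.10 for Ltbr (-0.58 to 0.37), -0.06 for Tnfrsf1a (-0.42 to 0.30) and -0.25 for Tnfrsf1b (-0.84 to 0.33). In the BAFF system they were 0.04 for Tnfsf13b (-0.55 to 0.64), 0.31 for Tnfrsf13b (-0.39 to 1.00) and 0.42 for Tnfrsf13c (-1.50 to 2.34). The intervals of Tnfsf13b, Ltbr and Tnfrsf1a keep any difference below 1 log2 unit either way, while those of Ltb and Tnfrsf13c leave room for severalfold differences in signal. Without the array that stood apart, Ltb differed by -0.41 and Tnf by -0.41. Without CaCl2 plus IgG replicate 1 Tnf differed by -1.20. Without CaCl2 replicate 3 Tnfrsf13c differed by 1.4 and Lta by 0.51, and without CaCl2 replicate 1 Tnfrsf13c differed by -0.32 and Lta by -0.47. With any single array left out, 0 members were called.

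**Figure D3:**
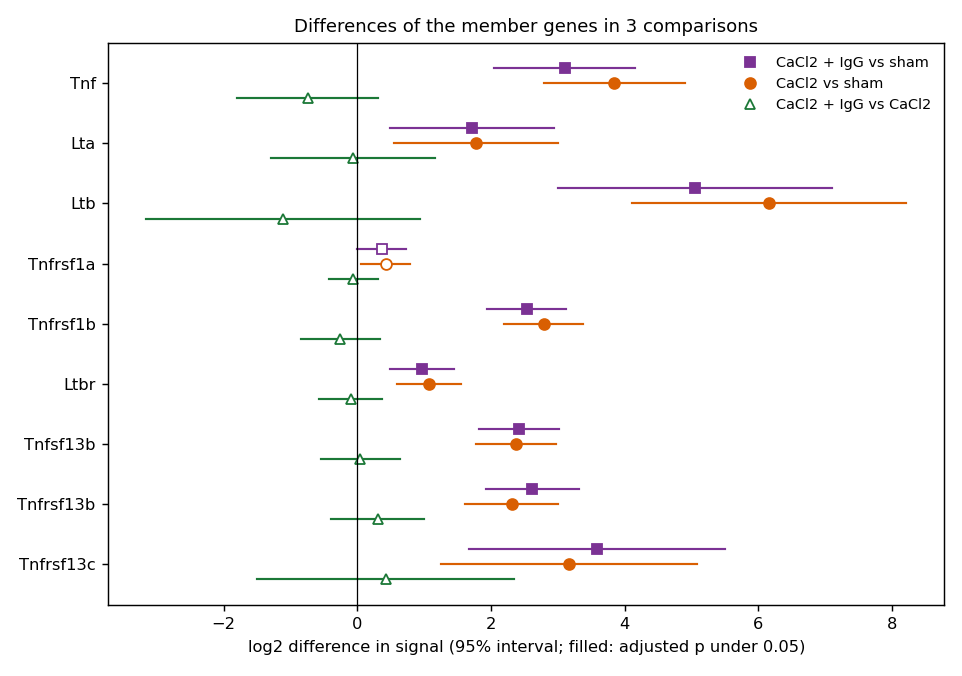
Log2 differences in signal (x axis) of the 9 members, with 95% intervals from the limma fit, for CaCl2 plus IgG against sham, CaCl2 against sham and CaCl2 plus IgG against CaCl2 from top to bottom within each gene; filled points passed at an adjusted p under 0.05. The triangles of the last comparison all have intervals across 0, and for Tnf, Lta and Tnfrsf13c the sham level was not well above background.

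With CaCl2 plus IgG against sham, 8 of 9 members were again higher and Tnfrsf1a again did not pass (0.36, limma adjusted p = 0.119). Of all genes 29% were called here, 14.7% as higher, and the groups of 20.4% did not overlap with the treated group higher. The comparison shares its sham arrays with the first one, so the values are given side by side and their likeness is not a second test. Ltb rose by 5.06, against 6.16 with CaCl2 alone, and Tnfrsf1b by 2.53, against 2.79. Tnfsf13b rose by 2.42, against 2.37, and Tnfrsf13b by 2.62, against 2.31. Ltbr rose by 0.97, against 1.07. Tnf was at least 2.99-fold higher, Lta at least 1.72-fold and Tnfrsf13c at least 3.44-fold, against bounds of 5.01, 1.80 and 2.57. The call of Lta (limma adjusted p = 0.0437) was lost in 13 of 21 alternatives. With the normexp background Tnf (log2 difference 0.52, limma adjusted p = 0.135) and Tnfrsf13c (0.62, 0.313) were not called either. Among genes well above background on all 9 arrays, 4 of 5 members were higher here too, against 13.3% of such genes. Probe by probe, where 21.7% were called, the middle probe of Tnfrsf13b rose by 0.99 (limma adjusted p = 0.00540) and its 5′ probe differed by -0.83 (limma adjusted p = 0.202).

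Related members were tested in 5 pairs for unequal change, by the difference of their log2 signals within each array. Only the shift of this difference between groups is meaningful, since 2 probes cannot be compared in level. The 6 CaCl2-treated arrays were set against the 3 sham arrays in an exact two-sided permutation test of 84 arrangements, whose smallest possible p is 0.0119, adjusted over the 5 pairs. Tnfrsf1b changed more than Tnfrsf1a by 2.27 log2 units (adjusted p = 0.0298, exact test), with no overlap between groups. Tnfsf13b changed more than the BC096441 probe that stood in for APRIL, a choice made after the data were seen, by 1.43 (adjusted p = 0.0298, exact test), also without overlap. In the pairs Ltb with Lta, Tnf with Lta and Tnfrsf13b with Tnfrsf13c at least 1 gene was not well above background in sham. The change of that gene is capped by the floor, so no size of the shift is taken as a result. Without sham replicate 1, sham replicate 3, CaCl2 replicate 1 or CaCl2 plus IgG replicate 2, neither of the first pairs passed (adjusted p = 0.0595 to 0.0893, exact test). Fewer arrays leave fewer arrangements and a larger smallest p.

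Genes around the members were followed in 8 lists, whose counts stand beside 17.4% of all genes called higher with CaCl2 and 19.1% called lower and were not tested against these shares. List genes given with "at least" were not well above background in sham aortas. They passed the filter on dim probes only through treated aortas, so their place among the higher genes was partly set by the filter. Of 9 other superfamily ligands tested, 4 were higher with CaCl2 than in sham aortas and 0 lower, with a median of 0.89. Tnfsf14, or LIGHT, which shares the lymphotoxin beta receptor, was at least 5.82-fold higher. Tnfsf11, or RANKL, the osteoclast factor, was at least 4.89-fold higher, and the CD30 ligand gene Tnfsf8 rose by 2.68. Of 21 other receptors, 9 were higher and 2 lower, with a median of 1.07. The largest was Tnfrsf18, or GITR, a receptor of activated and regulatory T cells, at 3.59, followed by the decoy receptor osteoprotegerin, Tnfrsf11b, at 2.07 and Cd40 at 1.94. Tnfrsf19 fell by 1.28 and Tnfrsf10b, the mouse TRAIL receptor, fell by 0.52. Tnfrsf17, or BCMA, the third receptor of this system, differed by 0.84 and did not pass (limma adjusted p = 0.352).

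Genes downstream of the receptors were followed in the same way, beside the same 17.4% of all genes called higher. Of 22 genes of the TNF receptor complex 6 were higher and 0 lower with CaCl2, with a median of 0.30. The deubiquitinase gene Tnfaip3, or A20, a brake on NF-kB, rose by 2.50, the adaptor gene Traf1 by 2.38 and the caspase gene Casp8 by 1.19, and the A20 partner Tnip1 by 1.01. Of 9 canonical NF-kB genes 2 were higher, the inhibitor gene Nfkbie at 2.77 and Bcl3 at 2.58, with a median of 0.21. Of 8 noncanonical genes, 4 were higher, with a median of 0.45. They were the NF-kB inducing kinase gene Map3k14 at 1.65, its partners Relb at 0.87 and Nfkb2 at 0.73, and Traf2 at 0.48, which is also in the complex list. Of 13 genes of TNF release and mRNA control 3 were higher, with a median of 0.04, among them the shedding enzyme gene Adam17 at 0.55. The largest difference in this list, in another gene, was 1.54.

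The last lists held target genes of these receptors. Here too, the place of genes given with "at least" among the higher genes was partly set by the filter on dim probes. Of 20 TNF-induced genes 14 were higher and 0 lower with CaCl2, with a median of 1.89. The cytokine gene Il6 was at least 42.2-fold higher, the neutrophil attractant Cxcl2 at least 16.6-fold, and the chemokine genes Ccl2 and Cxcl1 rose by 4.25 and 4.14. Of 9 lymphotoxin beta receptor targets 7 were higher and 0 lower, with a median of 1.81. Glycam1, a ligand of L-selectin in high endothelial venules, was at least 4.37-fold higher, the chemokine gene Cxcl12 rose by 2.23 and Il7 was at least 1.85-fold higher. Cxcl13, the chemokine that draws B cells into follicles, differed by 1.81 and did not pass (limma adjusted p = 0.148). With CaCl2 plus IgG against sham, where 14.7% of all genes were called higher, 11 of 20 and 6 of 9 genes of these lists were higher. In the other lists 3 of 9 ligands, 8 of 21 receptors, 5 of 22 complex, 2 of 9 canonical, 2 of 8 noncanonical and 3 of 13 release and mRNA control genes were higher, and Tnfrsf19 (-1.38), Traf5 (-0.69), Tnfrsf10b (-0.62) and Tnfsf12 (-0.59) were lower against sham. The lists share some genes. In this comparison Cxcl2 did not pass (limma adjusted p = 0.0852), and with CaCl2 plus IgG against CaCl2 no gene of the 8 lists passed.

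**Figure D4:**
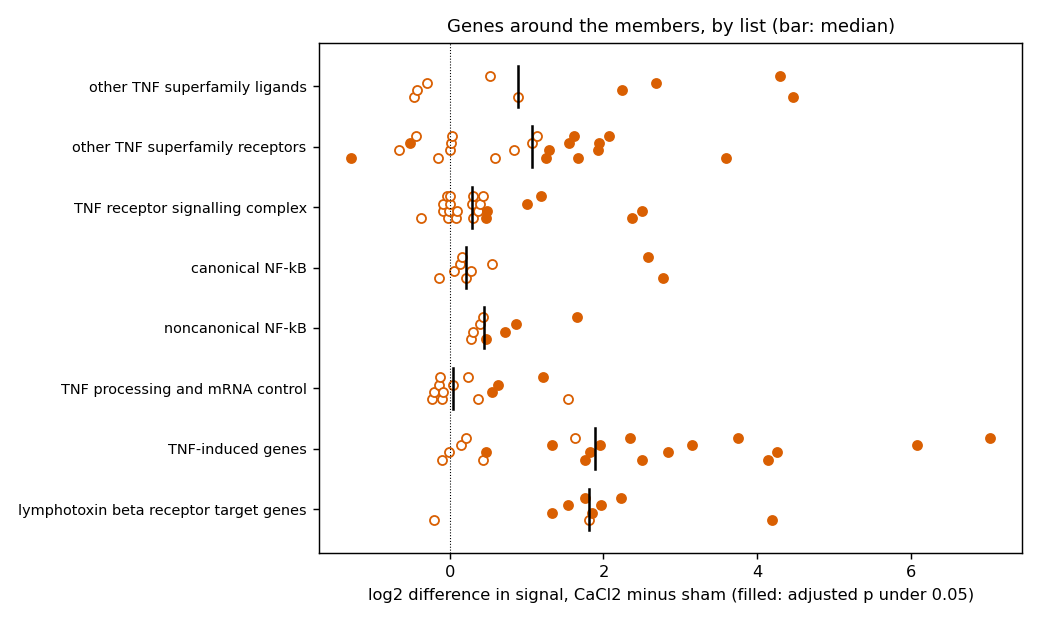
Log2 difference in signal, CaCl2 minus sham (x axis), of each tested gene of the 8 lists, 1 row per list; filled points passed at an adjusted p under 0.05 and the black bar is the median of the list. The medians of TNF-induced genes (1.89) and of lymphotoxin beta receptor targets (1.81) lie furthest right.

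Markers of cells that make or bind these cytokines differed in both directions. Their counts stand beside 17.4% of all genes called higher with CaCl2 and 19.1% called lower. Some markers were not well above background in sham and passed the filter on dim probes only through treated aortas. The counts of higher markers were partly set by that filter. Of 10 T cell markers 7 were higher and 1 lower with CaCl2, and their summed signal was 14.9 to 20.5 with CaCl2 plus IgG, 15.4 to 27.9 with CaCl2 and 6.47 to 8.08 in sham aortas. Of 8 plasma cell markers 5 were higher, with sums of 71.0 to 110 with CaCl2 plus IgG, 73.7 to 113 with CaCl2 and 33.9 to 46.3 in sham. Of 11 monocyte and macrophage markers 7 were higher and 2 lower, with sums of 272 to 373, 243 to 309 and 232 to 235 in the same groups. Natural killer and cytotoxic markers had 5 of 8 higher and 1 lower, with sums of 4.34 to 4.8 with CaCl2 plus IgG, 3.17 to 8.53 with CaCl2 and 2.75 to 3.11 in sham. Innate lymphoid markers had 3 of 4 higher, with sums of 2.79 to 3.32, 2.55 to 3.88 and 1.15 to 1.54 in the same groups. Other lists had sums that lay lower with CaCl2 than in sham. Dendritic cell markers had 4 of 7 higher and 1 lower, yet their sums were 153 to 284 with CaCl2 plus IgG, 155 to 170 with CaCl2 and 196 to 259 in sham. Neutrophil markers had 3 of 9 higher and 0 lower, with sums of 139 to 346 with CaCl2 plus IgG, 137 to 162 with CaCl2 and 215 to 278 in sham. Mast cell markers had 0 of 6 higher and 5 lower, with sums of 3.75 to 7.58 with CaCl2 plus IgG, 3.94 to 6.25 with CaCl2 and 9.04 to 19.7 in sham. The T cell genes Cd3d and Cd3g were well above background on 2 of 3 sham arrays and Cd8a on 0 of 3. Smooth muscle markers were lower in 8 of 8. With CaCl2 plus IgG against sham 4 of 9 B cell, 7 of 10 T cell, 5 of 8 plasma cell and 8 of 11 monocyte and macrophage markers were higher, and against CaCl2 no marker of any list passed. The part of these cells in the values of the members was not tested.

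**Figure D5:**
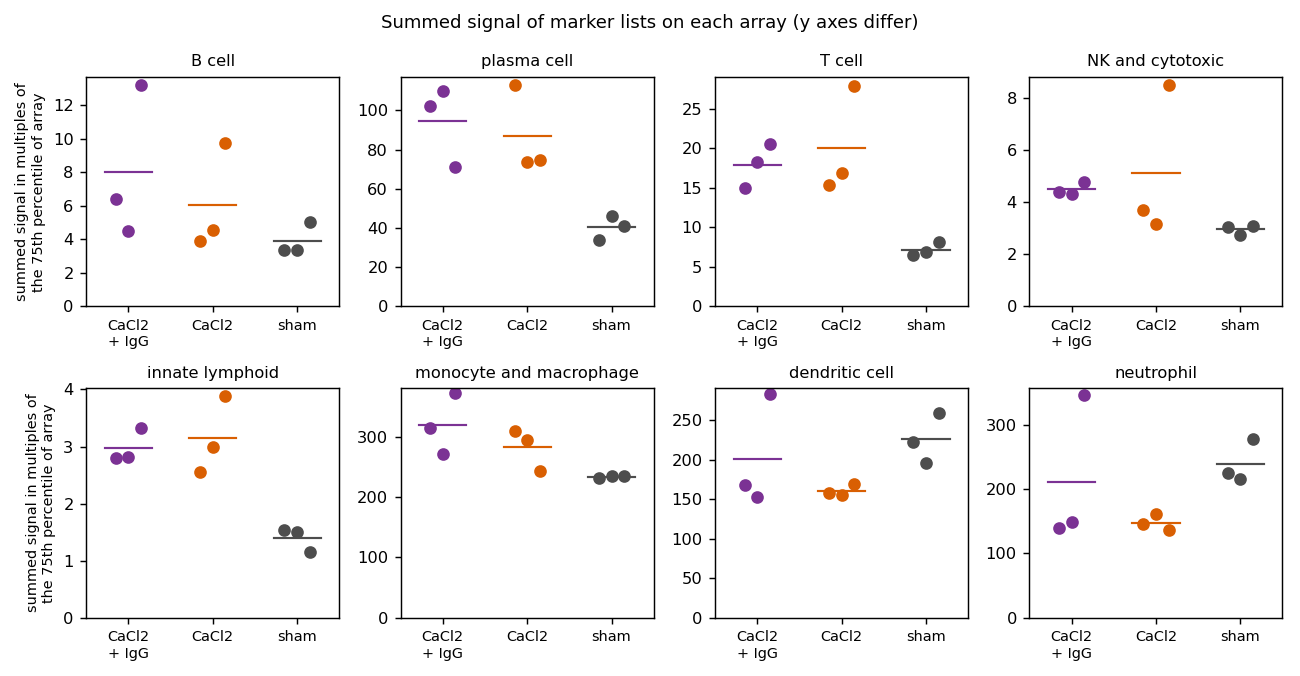
Summed signal of 8 marker lists in multiples of the 75th percentile of the array (y axes start at 0 and differ), each point 1 array and each bar the mean of 3, for CaCl2 plus IgG, CaCl2 and sham. B cell markers are highest on replicate 3 of each treated group (13.2 and 9.73), and T cell and plasma cell markers are lowest in all sham arrays. For neutrophil and dendritic cell markers the sums of all CaCl2 arrays lie below sham. Yet gene by gene 3 of 9 and 4 of 7 of these were called higher, and 0 and 1 lower.

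Over the 9 arrays, the genes whose values ran most like a member were found among 14601 named genes, as a description. For Tnf they were Cilp (r = 0.994), Capg (0.991) and Sirpa (0.990). Ltb was most like Hps1 (0.996), Ttc39c (0.994) and the chemokine gene Ccl2 (0.993), which is also one of the TNF-induced genes. Tnfsf13b was most like Padi2 (0.993), Gpr65 (0.993) and Ppm1h (0.992). The points share the sham and CaCl2 grouping, so any gene that differs strongly between those groups scores high.

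The arrays came from 2 slides. The second slide held only sham replicate 3, and the row of an array on its slide differed between groups. Within row 1, all 9 members were higher on the 3 CaCl2 arrays than on the single sham array, by 0.54 to 8.02, and the same held for the single CaCl2 plus IgG array, by 0.72 to 7.34. That sham array is replicate 3, the one on the second slide, so in row 1 slide and group cannot be told apart. Within row 2, all 9 were higher on the 2 CaCl2 plus IgG arrays than on the 2 sham arrays, by 0.19 to 3.92. With the row as a block Ltb differed by 6.88 in CaCl2 against sham, and with the slide as a block by 5.24, both called. The slide block is the same fit as leaving out sham replicate 3, so it is no separate check. On the first slide all CaCl2 arrays were in row 1 and its sham arrays in row 2. There row and treatment cannot be told apart for this comparison. With either block Lta and Tnfrsf13c were not called in CaCl2 against sham (limma adjusted p = 0.0603 to 0.0935).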

How the data were processed

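RNA from abdominal aorta was measured in 9 samples (3 per group) on 1-colour Agilent arrays carrying 55681 probes placed on mm9. The deposited scanner files hold spot intensity that the authors extracted with Agilent Feature Extraction 10.7.1.1 under protocol GE1_107_Sep09, per the file headers, while the submitters' processing notes give version 9.5.1.1. The processed intensity is background-subtracted and spatially detrended, per the file headers, and is not normalized between arrays. The authors' value table of the series, deposited as linear intensity with the same median (29.7) in every column, served only as an alternative; the sources used here do not give its normalization.

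Groups came from the labels. Control and outlier spots were left out, spots of a probe averaged, and log2 intensity taken minus the 75th percentile of the array. A probe was kept if every array of some group read it well above background (32166 probes), accessions were named through RefSeq tables, and the brightest kept probe stood for each of 16444 genes. R 4.3.3 and limma 3.58.1 fitted all 3 groups together (lmFit, eBayes), with Benjamini-Hochberg adjustment over all genes. On simulated arrays for CaCl2 against sham with 16439 genes, 45 of 100 genes changed by 1 log2 unit and 81 of 100 changed by 2 were called, with 3 false calls. Only these genes were changed, in the CaCl2 group alone, with noise drawn independently for each gene. In the data 36.5% of genes were called, so these counts do not carry over to the fit. A gene not above background in sham is given as "at least N-fold". For this the bright group's mean was set against a sham limit. On each array the limit was the dimmest signal still well above background or, where higher, the probe's own. The bound compares means and holds no sampling error. A limma p given for such a gene belongs to the log2 difference of the measured values, not to the bound. Every member is named; of each list up to 4 called genes with the largest change per comparison and those called against its direction are named, and Tnfrsf17, Cxcl13, Cd3g and Cd8a were chosen after their values were seen. The list of TNF release and mRNA control departs from this, since its gene with the largest difference is not named. The members and all lists were chosen with earlier results of these data known, so their directions are no independent evidence. Alternatives covered scaling, background, filter, probe choice, blocks and leaving out each array. The slide block and leaving out sham replicate 3 are the same fit, and both are counted among the alternatives.

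Same-numbered samples of different groups were checked for pairing: their deviations from the group means correlated by -0.197 to 0.224, over 0.1 in 3 of 9 cases, so the numbers were not taken as pairs. Exon and UTR positions of probes were not used here. The values of 1 B cell marker are not reported here.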

Additional observations from a re-analysis of the deposited data

How the results depend on the processing

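In the comparisons with sham every member kept a positive log2 difference under all alternatives run. None of these read Tnfrsf13b from its 5′ probe alone. Probe by probe, that probe differed from sham by -1.46 with CaCl2 and by -0.83 with CaCl2 plus IgG, so the sign of this gene depends on the probe. Between CaCl2 plus IgG and CaCl2, 0 members were called under all alternatives, with signs that turned for 6 of 9 members. Members called numbered 8 with CaCl2 against sham, 0 with CaCl2 plus IgG against CaCl2 and 8 with CaCl2 plus IgG against sham. Leaving out 1 array at a time gave 6 to 9, 0 to 0 and 7 to 8, with 6 without sham replicate 3 and 9 without CaCl2 plus IgG replicate 3, and 0 to 4 of the 5 pairs. That count of pairs includes those with a gene not well above background in sham, whose shifts are not taken as a result. With only probes above background on all 9 arrays, 4 of 5 members were called against sham in both comparisons, and 2 of 2 pairs. With the normexp background, whose offset of 50 compresses dim probes, 5 members were called in CaCl2 plus IgG against sham. There Tnf differed by 0.52 (limma adjusted p = 0.135), Lta by 0.10 (0.810) and Tnfrsf13c by 0.62 (0.313). The shift of Tnfrsf13b minus Tnfrsf13c between treated and sham arrays was 1.34 (exact adjusted p = 0.0149) in place of -0.91 (0.226). Its sign thus turned with the background setting. Tnfrsf13c was not well above background in sham aortas, so neither value can be read as unequal change of this pair. In CaCl2 against sham the normexp background gave 0.79 for Tnf (limma adjusted p = 0.0280), 0.04 for Lta (0.921) and 0.42 for Tnfrsf13c (0.475). With the replicate block, 8, 0 and 8 members were called, and 5758 genes in CaCl2 against sham. Scaling to the median moved the median of all genes to 0.39 in CaCl2 against sham and to 0.14 in CaCl2 plus IgG against sham, where 2987 genes were called in place of 4762. Quantile normalization called 3341 of 5889 genes as higher in CaCl2 against sham. In CaCl2 against sham 5995 genes were called; the count was 3896 with the slide as a block or without sham replicate 3, 3377 with the row as a block and 3977 without CaCl2 replicate 1. In CaCl2 plus IgG against sham it was 3013 without CaCl2 plus IgG replicate 2. In CaCl2 plus IgG against CaCl2, 2 genes were called without CaCl2 plus IgG replicate 1. The causes of these shifts were not tested. Signal near background limits Tnf, Lta, Tnfrsf13c and the sham level of Ltb.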
